A study of Mus musculus with 2 samples.

Results

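The genes described here are interferon-stimulated genes and genes of class I antigen presentation in fibro-adipogenic progenitors (FAPs), the resident mesenchymal cells of skeletal muscle. They were chosen by name, 29 interferon-stimulated and 14 class I presentation genes, of the 31053 genes in the count tables. Mx2 was not in the tables, which left 42 genes, and all 42 had at least 20 UMIs (unique molecular identifiers, each standing for 1 captured RNA molecule) over both libraries, as did 14729 of all genes. FAPs were sorted from limb muscles of 3-week-old C57BL/6 mice as live, lineage-negative, Vcam1-negative and Sca1-positive cells and sequenced as single cells by their RNA 3′ ends. The study compared Bap1WT mice, which carried the floxed Bap1 alleles without Cre (Bap1f/f), with Bap1ΔMPC mice (Prx1-Cre;Bap1f/f), in which the deubiquitinase gene Bap1 is deleted by a Cre driven from the Prx1 enhancer in the limb mesenchyme. Each genotype had 1 library, so genotype and library cannot be told apart, and the differences below were not tested. Intervals are exact 95% intervals for counting error only.

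Interferons bind receptors that act through JAK kinases and STAT factors. Type I interferon signals mostly through a complex with Stat2 and Irf9 that binds interferon-stimulated response elements, and type II interferon mostly through gamma-activated sites, with Irf1 among the genes it induces. The induced genes include antiviral effectors and also the class I pathway, in which the immunoproteasome cuts proteins into peptides, the Tap transporter carries them into the endoplasmic reticulum, and B2m with a heavy chain shows them at the cell surface.

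The WT-labelled library held 4103 cells and 51015705 UMIs and the cKO-labelled library 4378 cells and 49540066 UMIs, with medians of 12232 and 11017.5 UMIs per cell. 5 cell barcodes were in both libraries. Bap1 had 897 UMIs, or 17.6 CPM (UMIs per 1000000 UMIs), in the WT-labelled and 1072 UMIs, or 21.6 CPM, in the cKO-labelled library. These gene-level counts do not show which exons were transcribed, so they check neither label, and the libraries are called by their labels throughout. The FAP marker Pdgfra was at 347 and 298 CPM and Ly6a, which encodes Sca1 and is itself interferon-induced, at 1640 and 2002 CPM, while Ptprc, the defining marker of immune cells, had no UMI in either library. The list of 6 FAP markers stood at 69706 and 45173 CPM. Summed lists of other cells' markers differed between the libraries. The adipocyte list stood at 11.6 CPM in the WT-labelled and 87.6 CPM in the cKO-labelled library, the immune list at 14.8 and 24.7 CPM with 8 of its 24 genes at 0 in each, the endothelial list at 87.4 and 116 CPM, of which Tek made up 4006 of 4458 and 5283 of 5746 UMIs, and the cycling list at 57.9 and 104 CPM. The Schwann cell list stood at 19.7 and 66.6 CPM, mostly from S100b with 856 and 3154 UMIs, while the mural list was at 97.8 and 68.6 CPM and the list of muscle stem cells and myofibers at 66.2 and 47.4 CPM.

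Over all cells, 41 of the 42 genes had a higher level in the cKO-labelled library, and of these Irf9 and Ifih1 turned below 0 on the log2 scale under TMM scaling, which moved the median of all genes to −0.00. Of the 28 interferon-stimulated genes, 13 were over 1.5-fold higher and 1, Ifitm1, over 1.5-fold lower, with a median log2 ratio of cKO over WT of 0.50. Of the 14 class I genes, 9 were over 1.5-fold higher and 0 lower, with a median log2 ratio of 0.73. Among all 14729 genes with enough UMIs, 12.8% were over 1.5-fold higher and 10.8% over 1.5-fold lower, 60.7% had a ratio above 0, and the median log2 ratio was 0.10. Under TMM scaling 11 interferon-stimulated genes were higher and 1 lower (median 0.40) and 8 class I genes higher and 0 lower (median 0.63), against 10.5% of all genes higher and 12.8% lower. A fold over 3, the threshold of the study's methods, was passed upwards by 8 members, the interferon-stimulated Mx1, Rsad2, Isg15 and Ifi44 and the class I genes H2-Q6, H2-Q7, Nlrc5 and Psmb9, and downwards by 0, against 3.15% and 2.12% of all genes. Of these, Mx1, Ifi44 and Nlrc5 reached 20 UMIs only through the cKO-labelled library. The plot of ratios by role shows the spread, from a log2 ratio of −1.24 for Ifitm1 to 3.70 for H2-Q6.

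**Figure D1:**
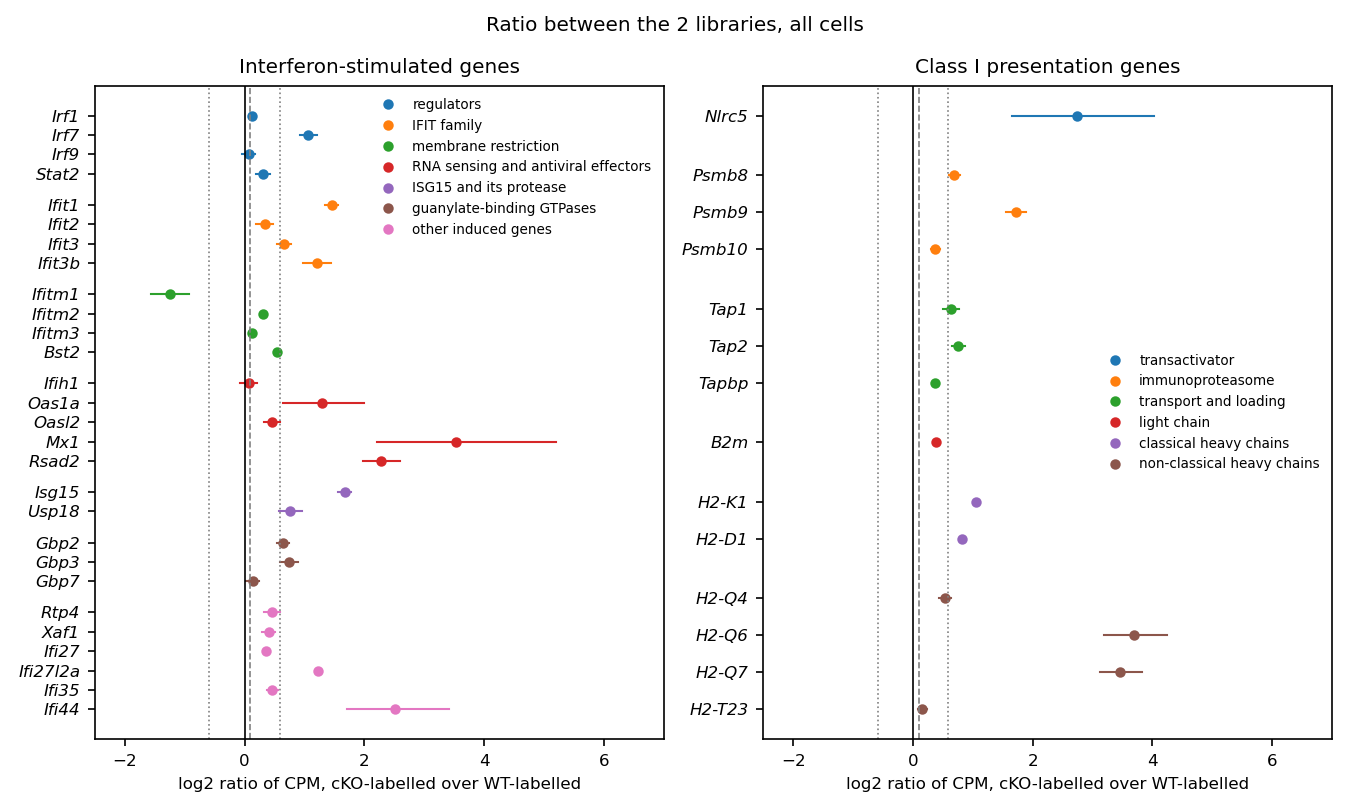
Log2 ratio of the summed level (CPM) in the cKO-labelled over the WT-labelled library for the 28 interferon-stimulated genes (left) and the 14 class I genes (right), coloured by role. Points are ratios and lines exact 95% counting intervals, the solid line marks 0, the dashed line the median of all genes (0.10) and the dotted lines 1.5-fold. Only Ifitm1 lies below 0, and H2-Q6, Mx1 and H2-Q7 lie farthest above it.

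Many interferon-stimulated promoters hold matches to the interferon-stimulated response element. The 3 shown belong to Isg15, Ifit1 and Rsad2, the 3 interferon-stimulated genes with at least 100 UMIs and the highest ratios. Each runs from 250 bases before to 50 bases after the RefSeq transcript start in GRCm38.p6, 5′ to 3′ along the gene. Capitals mark matches on either strand to the response element GAAANNGAAA, and in Isg15 3 such matches overlap in 1 run. The windows lie at chr4:156200769-156201068 (Isg15, minus strand), chr19:34640639-34640938 (Ifit1, plus strand) and chr12:26456403-26456702 (Rsad2, minus strand).
Isg15: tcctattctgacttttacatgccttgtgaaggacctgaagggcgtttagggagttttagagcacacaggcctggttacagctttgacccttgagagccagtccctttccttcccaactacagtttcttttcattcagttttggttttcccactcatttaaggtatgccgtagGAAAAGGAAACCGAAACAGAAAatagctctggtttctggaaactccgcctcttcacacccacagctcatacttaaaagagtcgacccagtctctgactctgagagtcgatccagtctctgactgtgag
Ifit1: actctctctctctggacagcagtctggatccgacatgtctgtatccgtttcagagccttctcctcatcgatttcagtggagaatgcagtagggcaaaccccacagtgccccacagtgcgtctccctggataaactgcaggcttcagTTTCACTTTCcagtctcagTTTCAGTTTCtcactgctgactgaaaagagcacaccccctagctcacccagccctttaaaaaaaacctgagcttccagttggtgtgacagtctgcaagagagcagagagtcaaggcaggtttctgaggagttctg
Rsad2: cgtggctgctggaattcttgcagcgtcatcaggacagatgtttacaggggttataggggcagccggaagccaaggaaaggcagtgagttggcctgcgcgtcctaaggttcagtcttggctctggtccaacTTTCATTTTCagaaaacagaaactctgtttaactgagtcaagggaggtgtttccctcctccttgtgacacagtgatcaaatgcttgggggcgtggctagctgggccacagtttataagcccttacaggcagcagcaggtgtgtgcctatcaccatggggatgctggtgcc
The matches began at −78, −72 and −66 from the start in Isg15, at −104 and −85 in Ifit1 and at −120 in Rsad2. RefSeq promoters were found for 35 of the 42 genes. The response element was present in 14 of 23 interferon-stimulated promoters (60.9%) and in 2 of 12 class I promoters (16.7%), B2m and H2-T23, against 3.99% of the promoters of all genes. Its presence was not limited to genes that differed much. Ifih1 (log2 ratio 0.07), Ifitm3 (0.13) and Gbp7 (0.14) held a match, and Ifi44 (2.51) and Irf7 (1.06) held none. The gamma-activated site TTCNNNGAA was present in 7 of 23 and in 1 of 12 (Psmb8), against 9.55% of all. A match describes the sequence and is not evidence that a factor bound there.

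ISG15, a ubiquitin-like protein that is joined to other proteins on interferon signalling, and its protease Usp18, which also dampens interferon receptor signalling, were both higher in the cKO-labelled library. Isg15 had 929 UMIs (18.2 CPM) in the WT-labelled and 2878 UMIs (58.1 CPM) in the cKO-labelled library, 3.19-fold higher (interval 2.96 to 3.44). Usp18 was at 6.74 and 11.4 CPM, 1.70-fold higher (interval 1.48 to 1.95). The IFIT proteins, which bind viral RNA and hold back its translation, are encoded side by side at chr19:34550694-34650009 on mm10. Of the 4 genes, 3 passed 1.5-fold. Ifit1 went from 18.4 to 50.6 CPM, a log2 ratio of 1.46 (1.35 to 1.57), Ifit3b from 4.14 to 9.57 CPM, a log2 ratio of 1.21 (0.97 to 1.45), and Ifit3 from 18.97 to 29.98 CPM, a log2 ratio of 0.66 (0.54 to 0.78). Ifit2, at 15.3 and 19.2 CPM, had a log2 ratio of 0.34 (0.20 to 0.47), so the neighbouring genes of the cluster did not differ by 1 common amount.

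Rsad2, the antiviral enzyme viperin, was at 2.10 CPM (107 UMIs) in the WT-labelled and 10.2 CPM (506 UMIs) in the cKO-labelled library, 4.87-fold higher (3.95 to 6.06). Mx1, a dynamin-like GTPase, had 5 and 56 UMIs, and Oas1a, an oligoadenylate synthetase that senses double-stranded RNA, had 28 and 67 UMIs. These counts put Mx1 11.5-fold higher with an interval from 4.66 to 36.9, so the size of its difference was poorly set. Ifih1, the cytoplasmic RNA sensor Mda5, had 764 and 778 UMIs, a log2 ratio of 0.07 (−0.08 to 0.21), and Oasl2 stood at 14.7 and 20.2 CPM. The effectors therefore ran from no detectable difference to over 10-fold, with the largest ratio for the gene with the fewest UMIs.

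Of the regulators, Irf7, which amplifies the type I response, was at 12.7 CPM in the WT-labelled and 26.5 CPM in the cKO-labelled library, a log2 ratio of 1.06 (0.93 to 1.20). Irf1 was at 145 and 159 CPM (log2 ratio 0.13), Stat2 at 23.4 and 29.0 CPM (0.31) and Irf9 at 25.7 and 27.0 CPM (0.07, interval −0.04 to 0.18). Irf7 was thus the only regulator of the 4 past 1.5-fold, and Irf9 was not separated from equal levels. Of the guanylate-binding GTPases, which attack the membranes around intracellular microbes, Gbp2 went from 24.1 to 37.6 CPM (log2 ratio 0.64, interval 0.54 to 0.75), Gbp3 from 12.2 to 20.5 CPM (0.74, 0.60 to 0.89) and Gbp7 from 26.4 to 29.0 CPM (0.14, 0.03 to 0.25).

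The membrane proteins that keep viruses from entering or leaving cells showed another pattern. Ifitm2 and Ifitm3 had the highest counts of all members, 62021 and 62428 UMIs in the WT-labelled and 74277 and 66242 UMIs in the cKO-labelled library, with log2 ratios of 0.30 and 0.13. Bst2, the tether of budding virus particles, stood at 99.4 and 144 CPM, 1.45-fold higher. Ifitm1 was the 1 member with a lower level, at 290 UMIs (5.68 CPM) in the WT-labelled and 119 UMIs (2.40 CPM) in the cKO-labelled library, a log2 ratio of −1.24 (−1.56 to −0.93). Ifitm1, Ifitm2, Ifitm3 and Irf7 lie together at chr7:140954837-141266481 and had ratios of both signs. Of the remaining induced genes, Ifi27l2a, a small gene of the Ifi27 family, was at 211 and 492 CPM, 2.33-fold higher (2.28 to 2.38), and Ifi44 had 15 and 83 UMIs, a log2 ratio of 2.51 (1.71 to 3.41). Ifi27, the neighbour of Ifi27l2a, was at 326 and 417 CPM, a log2 ratio of 0.36, and Rtp4, Xaf1 and Ifi35 had log2 ratios of 0.45, 0.40 and 0.47.

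All 14 listed class I genes had log2 ratios above 0, from the transactivator to the heavy chains. A list of other class I genes, given below, had a median log2 ratio of 0.21. Nlrc5, the transactivator that turns on class I promoters, had 8 UMIs in the WT-labelled and 52 UMIs in the cKO-labelled library, a log2 ratio of 2.74 (1.66 to 4.03). The immunoproteasome subunit Psmb9 was at 7.06 and 23.3 CPM, 3.30-fold higher (2.93 to 3.73), Psmb8 at 29.97 and 48.5 CPM, 1.62-fold higher (1.52 to 1.73), and Psmb10 at 53.3 and 69.1 CPM, 1.30-fold higher. The 14 constitutive proteasome genes, a comparison list, had log2 ratios between 0.08 and 0.38 with a median of 0.22, and 0 of them passed 1.5-fold. For peptide transport and loading, Tap1 was at 13.7 and 21.3 CPM (log2 ratio 0.64, interval 0.50 to 0.78), Tap2 at 23.4 and 39.6 CPM (0.76, 0.65 to 0.86) and Tapbp, the loading chaperone, at 130 and 167 CPM (0.36, 0.31 to 0.41). The light chain B2m stood at 472 and 615 CPM, 1.30-fold higher. Psmb8, Psmb9, Tap1 and Tap2 thus had higher ratios than the light chain, and Psmb10 and Tapbp had ratios near it.

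Among the heavy chains, the classical H2-K1 was at 208 CPM (10588 UMIs) in the WT-labelled and 433 CPM (21449 UMIs) in the cKO-labelled library, 2.09-fold higher (2.04 to 2.13), and H2-D1 was at 370 and 655 CPM, 1.77-fold higher (1.74 to 1.80). The non-classical chains of the Q region differed most. H2-Q6 had 34 UMIs in the WT-labelled and 428 UMIs in the cKO-labelled library, a log2 ratio of 3.70 (3.19 to 4.25), and H2-Q7 had 76 and 812 UMIs, a log2 ratio of 3.46 (3.12 to 3.82). H2-Q4, in the same cluster at chr17:35262730-35443773, was at 29.6 and 43.0 CPM (log2 ratio 0.54), and H2-T23, which shows leader peptides of other class I chains to natural killer cells, was at 54.8 and 61.1 CPM (0.16). The heavy chains are near-copies of each other, and 26.9% of the 90-base windows near the transcript ends of H2-Q6 also occurred in other genes, among them H2-Q7, H2-K1 and H2-D1, against 4.73% for H2-Q7 and 0.15% for H2-K1. How reads were shared between H2-Q6 and H2-Q7 is therefore uncertain, and the same holds for Oas1a (42.3%), Ifitm2 (26.5%), H2-T23 (13.4%), H2-Q4 (9.49%) and Ifit3 with Ifit3b (6.57%).

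The promoters of the heavy chains differ from those of the effectors and are shown for H2-K1, H2-D1 and H2-Q7, a classical pair and the Q-region gene that shared the fewest windows. In these, capitals mark the kappaB-type site GGGATTCCC and, downstream of it, a shorter form of the response element, GAANNGAAA, on either strand. Both motifs were chosen after the class I promoters had been read. The windows are chr17:34000298-34000597 (H2-K1, minus strand), chr17:35262844-35263143 (H2-D1, plus strand) and chr17:35438905-35439204 (H2-Q7, plus strand), on GRCm38.p6 from RefSeq.
H2-K1: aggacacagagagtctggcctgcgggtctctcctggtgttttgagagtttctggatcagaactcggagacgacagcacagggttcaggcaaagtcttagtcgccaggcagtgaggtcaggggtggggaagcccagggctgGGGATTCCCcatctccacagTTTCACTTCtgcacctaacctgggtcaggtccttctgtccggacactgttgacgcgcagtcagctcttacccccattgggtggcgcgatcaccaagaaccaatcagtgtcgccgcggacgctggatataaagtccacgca
H2-D1: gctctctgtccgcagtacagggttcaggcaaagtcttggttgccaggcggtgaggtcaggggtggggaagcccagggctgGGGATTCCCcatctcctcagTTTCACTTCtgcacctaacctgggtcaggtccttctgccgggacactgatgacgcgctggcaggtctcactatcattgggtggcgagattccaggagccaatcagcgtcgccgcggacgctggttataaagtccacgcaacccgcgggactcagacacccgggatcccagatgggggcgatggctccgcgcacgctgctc
H2-Q7: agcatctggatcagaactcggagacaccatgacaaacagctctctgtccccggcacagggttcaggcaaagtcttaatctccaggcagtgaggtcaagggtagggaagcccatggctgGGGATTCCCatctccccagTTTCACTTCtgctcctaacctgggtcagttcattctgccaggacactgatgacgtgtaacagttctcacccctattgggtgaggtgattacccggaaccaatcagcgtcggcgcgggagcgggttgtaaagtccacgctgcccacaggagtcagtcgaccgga
The shorter element began at −90, −150 and −113 and the kappaB-type site at −110, −170 and −132 from the start. The shorter element was in 5 of 12 class I promoters (41.7%), all 5 of them heavy chains, in 7 of 23 interferon-stimulated promoters and in 8.68% of all. It can overlap the full response element in sequence. The kappaB-type site was in 4 of 12 class I promoters (33.3%) and in 0.414% of all, and Irf1 was the 1 interferon-stimulated gene that held it. Over their best alignment without gaps, H2-K1 and H2-D1 had the same base at 176 of 240 positions and H2-Q6 and H2-Q7 at 200 of 261. H2-Q6 and H2-Q7 had log2 ratios above 3 and H2-K1 and H2-D1 near 1, so genes that held both motifs differed in the size of their ratio.

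The rest of the pathway was described from lists of its ligands, receptors, sensors and other induced genes. The 20 interferon genes had 13 UMIs in all in the WT-labelled and 11 in the cKO-labelled library, and 0 of them reached 20 UMIs. Of 14 receptor and JAK-STAT genes, 0 passed 1.5-fold in either direction and the median log2 ratio was 0.07. Of 19 nucleic acid sensing genes, 4 were over 1.5-fold higher and 0 lower, Dhx58 (log2 ratio 0.70), Irf5 (0.65), Zbp1 (0.63) and Samhd1 (0.60). Of 49 other interferon-induced genes, 14 were over 1.5-fold higher and 0 lower with a median of 0.35, and Iigp1, an immunity-related GTPase gene, was at 1071 and 2766 UMIs (1.41) and Samd9l at 893 and 2205 UMIs (1.35). Of 15 other class I genes, 1 was over 1.5-fold higher, H2-T24 at 29 UMIs in all. Mr1, which presents vitamin metabolites to T cells, was the 1 over 1.5-fold lower (−0.75). Their median log2 ratio was 0.21, and the whole list of 17 genes summed to 2055 CPM in the WT-labelled and 2077 CPM in the cKO-labelled library. Class II genes had 341 UMIs in the WT-labelled and 476 in the cKO-labelled library over 11 genes. Of the 6 with at least 20 UMIs, 3 were over 1.5-fold higher and 0 lower, with a median log2 ratio of 0.72. Among all genes 12.8% were over 1.5-fold higher and 10.8% lower. Shares above the former were thus found for induced, sensing and class II genes, but not for receptor and JAK-STAT or other class I genes. Transcripts of the ligands were near the limit of detection in both libraries.

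FAPs are known to include Dpp4+ cells. Cells were called Dpp4-type here when Pi16, Sema3c, Anxa3 and Efemp1 together made up 25 or more UMIs per 10000, which held for 1050 of 4103 cells (25.6%) in the WT-labelled and 1251 of 4378 cells (28.6%) in the cKO-labelled library. The score is a range and not a type, and 210 and 337 cells lay within 20 to 30 per 10000. Dpp4 itself, which the score did not use, was at 298 CPM in Dpp4-type and 56.5 CPM in other cells of the WT-labelled library and at 268 and 39.5 CPM in the cKO-labelled library. The list of 5 Dpp4-type markers outside the score, Dpp4 among them, stood at 5666 and 1073 CPM in the WT-labelled library. In the cKO-labelled library the list stood at 5045 and 1492 CPM. In other cells 3 of the 5 were over 1.5-fold higher in the cKO-labelled library and 0 lower, against 13.8% and 10.2% of all genes. Median depth was 13635 and 11829 UMIs per cell in Dpp4-type and other cells of the WT-labelled library and 11661 and 10733 in the cKO-labelled library.

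Both classes showed the difference between the libraries. In Dpp4-type cells 11 of 28 interferon-stimulated genes were over 1.5-fold higher and 0 lower (median log2 ratio 0.53), and 8 of 14 class I genes were higher and 0 lower (0.69), against 9.76% and 10.2% of all genes (median 0.07). In other cells 13 interferon-stimulated genes were higher and 1 lower (median 0.48), and 9 class I genes were higher and 0 lower (0.84), against 13.8% and 10.2% of all genes (median 0.11). Among those counted as higher, Mx1, Ifi44 and Nlrc5 had fewer than 20 UMIs in the WT-labelled library in each class. In other cells the same held for Oas1a and H2-Q6. These genes passed the minimum of 20 UMIs only with the cKO-labelled library, so the minimum favoured their direction. Isg15 went from 20.6 to 60.8 CPM in Dpp4-type and from 17.3 to 56.9 CPM in other cells, Ifit1 from 27.8 to 67.8 and from 14.9 to 43.3 CPM, and H2-D1 had log2 ratios of 0.81 and 0.83. The ratios of Isg15 and H2-D1 did not differ between the classes beyond counting error. The log2 ratio of Ifit1 was 0.26 higher in other cells (0.04 to 0.48). The bars show Isg15 and Ifit1 higher in the cKO-labelled library in each class.

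**Figure D2:**
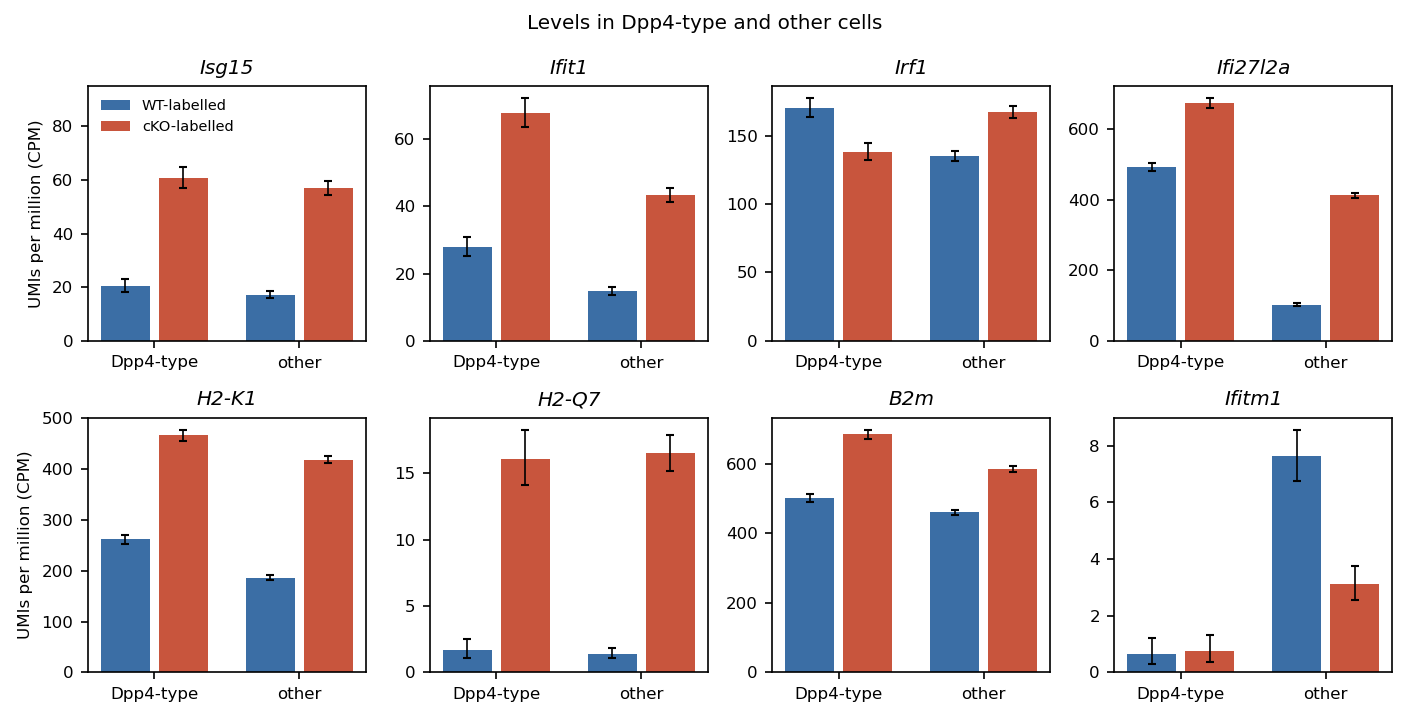
Summed level (CPM) of 8 members in Dpp4-type and other cells of the WT-labelled and cKO-labelled libraries, with exact 95% counting intervals. Isg15, Ifit1, H2-K1, H2-Q7 and B2m are higher in the cKO-labelled library in both classes, Irf1 is lower in Dpp4-type and higher in other cells, and Ifitm1 is low in Dpp4-type cells of both libraries.

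Some members differed between the classes. Irf1 was at 170 CPM in the WT-labelled and 138 CPM in the cKO-labelled library in Dpp4-type cells, a log2 ratio of −0.30 (−0.39 to −0.22), and at 135 and 167 CPM in other cells, a log2 ratio of 0.31 (0.25 to 0.36). It was the 1 member with intervals clear of 0 on opposite sides, and the near-equal level over all cells was the sum of both. Cxcl10, an interferon-induced chemokine gene that is no member, stood at 202 and 109 CPM in Dpp4-type and at 87.1 and 212 CPM in other cells. Ifit2 was at 23.3 and 36.8 CPM in Dpp4-type cells and at 12.2 and 11.8 CPM in other cells, and its log2 ratio in other cells was 0.70 below that in Dpp4-type cells (0.43 to 0.98 below). Ifih1 had log2 ratios of 0.39 and −0.10 and Gbp7 of 0.46 and −0.02, with intervals in other cells that held 0. Ifitm1 was nearly confined to other cells, with 281 and 108 UMIs there and 9 and 11 UMIs in Dpp4-type cells, so its lower level was measured in other cells (log2 ratio −1.29).

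Ifi27l2a and Usp18 differed between the libraries mainly in other cells. Ifi27l2a was at 493 and 676 CPM in Dpp4-type cells and at 103 and 414 CPM in other cells, log2 ratios of 0.45 and 2.01, a difference of 1.55 (1.49 to 1.62). Usp18 was at 15.8 and 18.1 CPM in Dpp4-type cells and at 3.28 and 8.63 CPM in other cells, log2 ratios of 0.19 (−0.07 to 0.46) and 1.40, a difference of 1.20 (0.80 to 1.60). H2-K1 had log2 ratios of 0.83 and 1.16 and Psmb9 of 1.27 and 1.89. Marker lists moved with the class as well. The adipocyte list was at 5.31 and 16.3 CPM in Dpp4-type cells and at 13.96 and 118 CPM in other cells. The 5 Dpp4-type markers outside the score went from 1073 to 1492 CPM in other cells. In the WT-labelled library Ifi27l2a and Usp18 were themselves higher in Dpp4-type than in other cells (log2 ratios 2.26 and 2.27). A change in which cells fell under the score cut and a change within other cells therefore cannot be told apart. The part of either list in these differences was not tested.

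**Figure D3:**
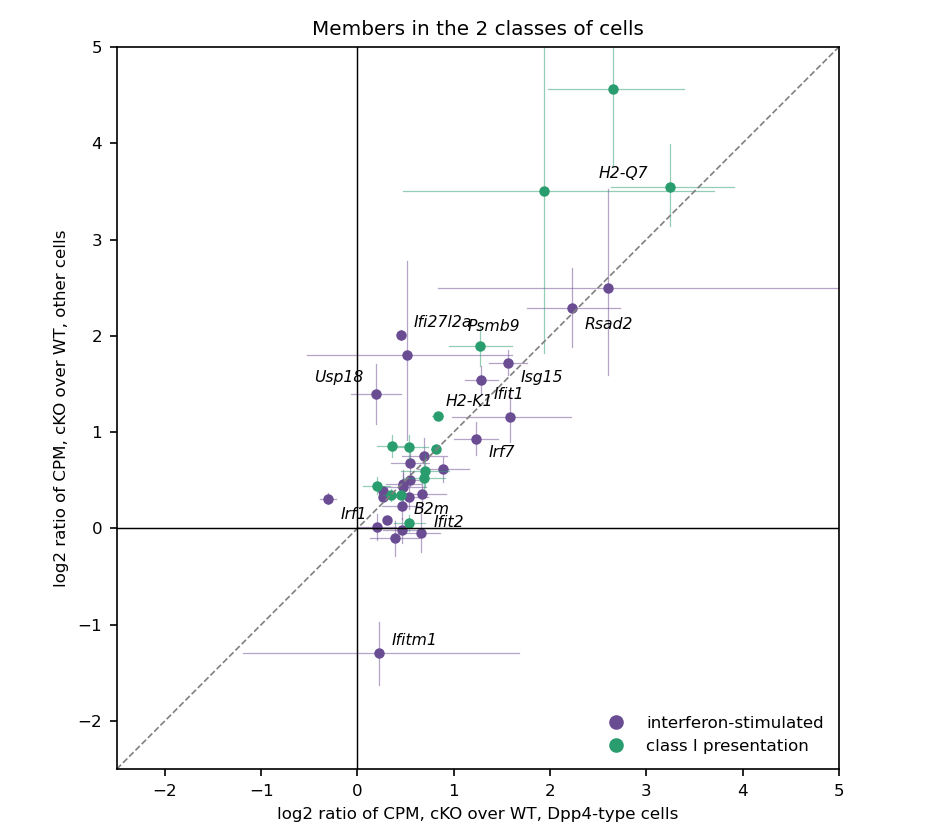
Log2 ratio of cKO over WT in Dpp4-type cells (horizontal axis) and in other cells (vertical axis) for 41 members, with exact 95% counting intervals as thin lines and equal ratios on the dashed diagonal. Mx1 is left out because it had 1 UMI in Dpp4-type cells of the WT-labelled library. Most members lie near the diagonal at the upper right, Irf1 lies left of 0, Ifitm1 below it, and Ifi27l2a and Usp18 above the diagonal.

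Within each library single members differed between the classes in both directions. Dpp4-type over other cells, 8 interferon-stimulated genes were over 1.5-fold higher and 5 lower of 26 with enough UMIs in the WT-labelled library, and 9 higher and 3 lower of 28 in the cKO-labelled library, against 10.5% and 17.4% of all genes in the former and 9.17% and 19.1% in the latter. The share of interferon-stimulated genes that were lower was thus near that of all genes in the WT-labelled and below it in the cKO-labelled library. For class I genes the counts were 3 higher and 2 lower of 13, and 1 higher and 1 lower of 14. The latter shares were below those of all genes in both directions, so class I genes as a set did not stand out there. Usp18 had log2 ratios of Dpp4-type over other cells of 2.27 in the WT-labelled and 1.07 in the cKO-labelled library, Ifit1 of 0.91 and 0.65, Ifit2 of 0.94 and 1.64 and Bst2 of 0.61 and 0.65. Ifit3 and Ifit3b went the other way, with −0.74 and −0.47 for Ifit3 and −1.15 and −0.72 for Ifit3b, so the IFIT genes were split between the classes in both libraries. Ifitm1 had the lowest values, −3.58 and −2.06. Tapbp was higher in Dpp4-type cells by 0.67 in each library, and H2-Q4 was lower by 0.79 and 0.62 on the log2 scale.

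To describe the spread over cells, each cell was thinned to 5000 UMIs, which left 3983 cells in the WT-labelled and 4168 in the cKO-labelled library. The 6 IFIT and ISG15-type genes (Isg15, Usp18, Ifit1, Ifit2, Ifit3 and Ifit3b) gave at least 1 UMI in 857 cells (21.5%, interval 20.2 to 22.8) of the WT-labelled and 1315 cells (31.5%, 30.1 to 33.0) of the cKO-labelled library. Before thinning the shares were 37.8% and 47.4%. At least 5 UMIs were found in 55 cells (1.38%) and 166 cells (3.98%), and at least 10 in 15 cells (0.377%) and 69 cells (1.66%). Cells with at least 5 held 34.6% of these UMIs in the WT-labelled and 52.1% in the cKO-labelled library. Most cells of either library thus had no UMI of these genes at this depth, and the cells rich in them were present in both libraries and more frequent in the cKO-labelled one. They were spread over the classes, since Dpp4-type cells made up 30.9% and 30.7% of the cells with at least 5.

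By gene, Isg15 gave a UMI in 5.12% of cells of the WT-labelled and 12.4% of the cKO-labelled library (9.24% and 18.6% before thinning), Ifit1 in 4.19% and 8.997%, and Rsad2 in 0.502% and 1.78%. The sorted cells included no cell type that should lack these genes, so the background from free RNA was not measured. The variance over the mean (Fano factor), which is near 1 for a gene at a like level in all cells, was 5.08 and 5.74 for Ifit1 and 4.55 and 5.49 for Isg15, against a median of 1.04 and 1.05 over all genes with a mean of at least 0.05 UMIs per cell. Of the members, 31 and 34 reached that mean, with median Fano factors of 1.32 and 1.48 and the highest for Ifit1 in the WT-labelled library and for Ifi27l2a, at 7.63, in the cKO-labelled one. Bst2 was found in 31.0% and 35.7% of cells after thinning but in 53.5% and 51.9% before, so no order is read from its shares. Psmb9 had a UMI in 3.67% and 10.7% of cells and Fano factors of 1.09 and 1.14, nearer 1 than those of Ifit1 and Isg15. Its mean in the WT-labelled library was below 0.05 UMIs per cell. The cells with at least 5 IFIT and ISG15-type UMIs (1.38% and 3.98% of cells) held 14 of its 156 UMIs in the WT-labelled library. In the cKO-labelled library they held 54 of 501, so Psmb9 was also higher in these cells.

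Class I presentation showed a shift of most cells together with a long upper tail. The 14 genes summed to a median of 7 UMIs per thinned cell in the WT-labelled and 9 in the cKO-labelled library, with 10th percentiles of 3 and 4, 90th percentiles of 12 and 20 and highest cells of 48 and 103. Cells with at least 20 class I UMIs were 32 (0.803%) in the WT-labelled and 440 (10.6%) in the cKO-labelled library, and cells with at least 30 were 10 (0.251%) and 170 (4.08%). At least 50 were found in 0 of 3983 cells, which allows a share of up to 0.0753%, and in 45 cells (1.08%). The Fano factor of the sum went from 2.14 to 7.76, that of H2-K1 from 1.48 to 4.29 and that of H2-D1 from 1.49 to 3.25. The share of cells with an H2-K1 UMI was 58.6% and 72.6% (81.9% and 88.8% before thinning).

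**Figure D4:**
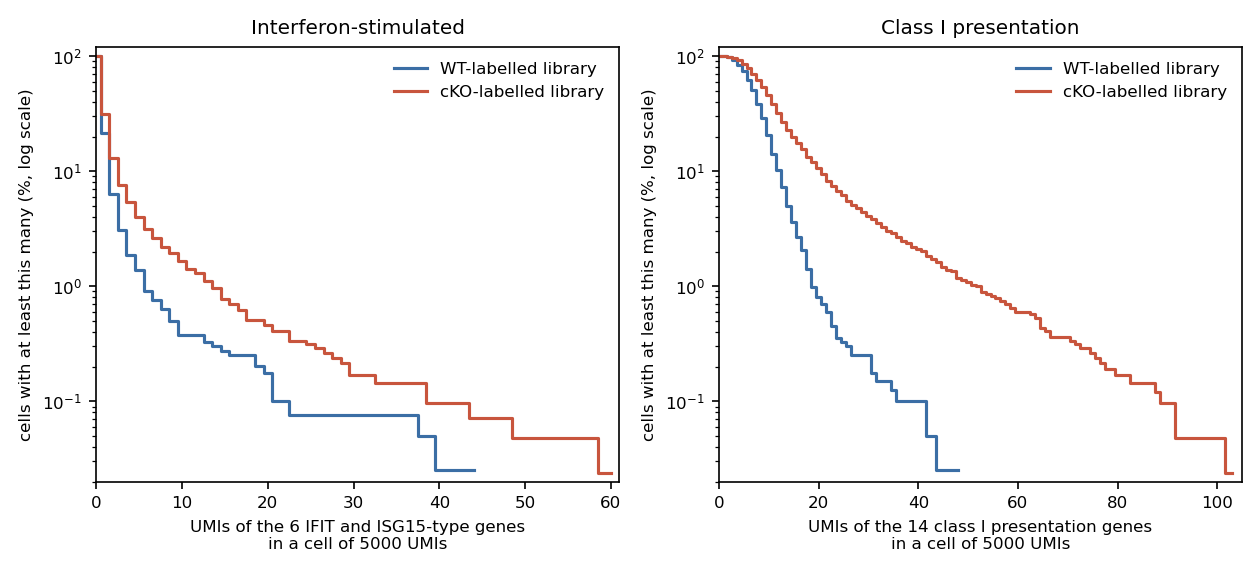
Share of cells (percent, log axis) with at least the number of UMIs on the horizontal axis in a cell thinned to 5000 UMIs, for the 6 IFIT and ISG15-type genes (left) and the 14 class I genes (right), in the WT-labelled (blue) and cKO-labelled (red) library. The red line lies above the blue one throughout the upper range of both panels, and the class I line of the cKO-labelled library reaches 103 UMIs against 48.

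To describe how the other interferon-stimulated genes varied from cell to cell, cells were grouped by their UMIs of the 6 IFIT and ISG15-type genes, and the 16 other interferon-stimulated genes under 100 CPM, which the grouping did not use, were summed in each group. In cells with 0, 1, 2 to 4 and 5 or more, the sum stood at 188, 280, 525 and 1473 CPM in the WT-labelled and at 212, 301, 541 and 1684 CPM in the cKO-labelled library. The sum thus followed the grouping in both libraries, and its log2 ratio of cKO over WT was 0.17 (0.10 to 0.25) in cells with 0 and 0.19 (0.03 to 0.36) in cells with 5 or more, against 0.42 over all thinned cells. The groups with UMIs were larger in the cKO-labelled library, where 774, 375 and 166 cells had 1, 2 to 4 and 5 or more, against 603, 199 and 55. Single genes departed from the sum. In cells with 0, Ifi27l2a had a log2 ratio of 1.02 (0.95 to 1.08), Irf7 of 0.79 (0.42 to 1.16) and Ifitm1 of −1.32 (−1.89 to −0.78). In cells with 5 or more, Ifi27l2a had a log2 ratio of 1.53, Rsad2 of 0.89 (0.32 to 1.504), Gbp2 of 0.85 (0.22 to 1.55) and Oasl2 of −0.65 (−1.08 to −0.21). A cell with 0 after thinning may still hold RNA of these genes. The groups were made from genes of the same response as those summed, so more responding cells and a higher level in each cell cannot be told apart by them.

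The class I part was present in cells of every group. In cells with 0 IFIT and ISG15-type UMIs the 14 genes summed to 1353 CPM in the WT-labelled and 1941 CPM in the cKO-labelled library, a log2 ratio of 0.52 (0.49 to 0.55), against 0.67 over all thinned cells. H2-K1 in the same cells was at 201 and 359 CPM, a log2 ratio of 0.83 (0.77 to 0.90), Psmb9 had a log2 ratio of 1.47 (1.14 to 1.80) and H2-Q7 one of 2.61 (1.98 to 3.30). The difference in class I genes was therefore also measured in cells without a detected IFIT or ISG15-type RNA. Within the cKO-labelled library H2-K1 went from 359 CPM in cells with 0 to 470, 675 and 925 CPM in the other groups, and in the WT-labelled library it stood at 201, 204, 216 and 433 CPM. The constitutive proteasome was at 2277, 2234, 2255 and 2335 CPM in the WT-labelled and 2603, 2599, 2577 and 2501 CPM in the cKO-labelled library, which did not follow the grouping. In cells with 0, 6 of 13 class I genes with enough UMIs were over 1.5-fold higher and 0 lower, and of 18 interferon-stimulated genes 2 were higher, Ifi27l2a and Irf7, and 1, Ifitm1, lower. Among all genes in these cells 10.7% were higher and 9.69% lower, so the share of interferon-stimulated genes over 1.5-fold higher was near that of all genes there. These cells were picked in both libraries for 0 UMIs of 6 genes of the same response. Of the 22 other interferon-stimulated genes, only 18 had 20 UMIs there. The interferon-stimulated and class I counts can therefore not be set against each other in these cells.

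**Figure D5:**
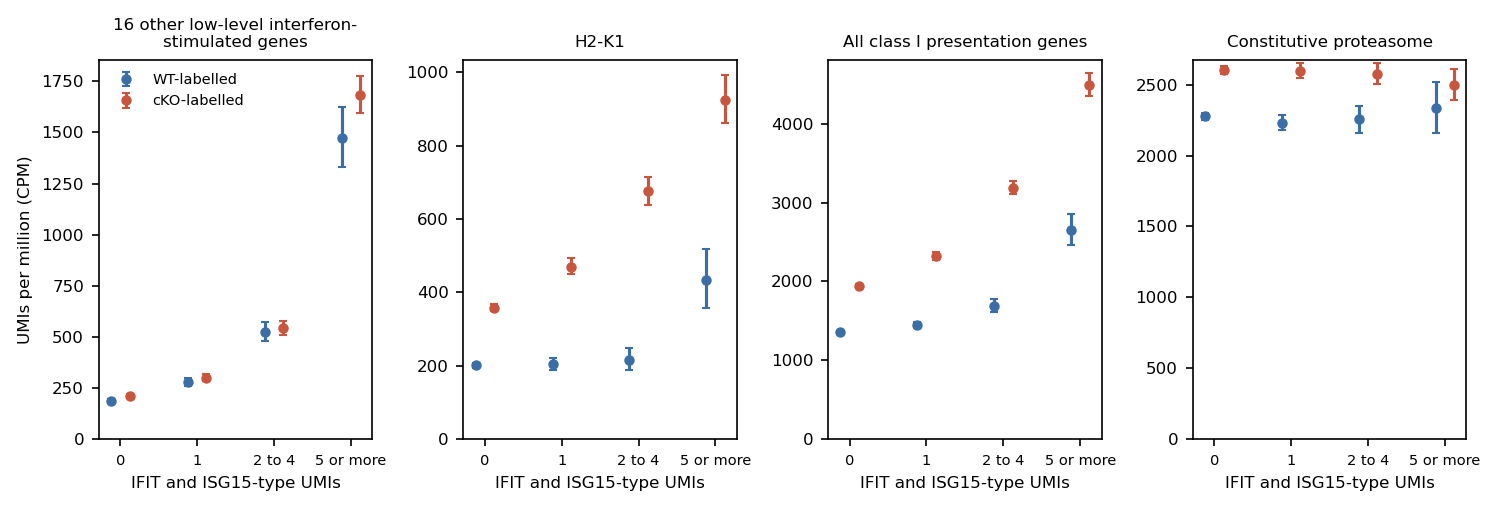
Summed level (CPM, axes from 0) in cells grouped by their UMIs of the 6 IFIT and ISG15-type genes at 5000 UMIs per cell, for 16 other low-level interferon-stimulated genes, H2-K1, all class I genes and the constitutive proteasome, with exact 95% counting intervals. The interferon-stimulated level climbs with the group in both libraries, from 188 to 1473 CPM (WT-labelled) and from 212 to 1684 CPM (cKO-labelled), class I is higher in the cKO-labelled library in each group, and the proteasome is level across groups.

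Cells with a UMI of H2-Q6 or H2-Q7 were richer in other class I RNA, but many cells rich in class I RNA had none. Of cells with at least 20 class I UMIs, 39.8% of 440 in the cKO-labelled and 15.6% of 32 in the WT-labelled library had one. Of cells with at least 30, the shares were 65.3% of 170 and 30% of 10. UMIs of H2-Q6 and H2-Q7 count towards these class I sums, which raises the shares. H2-Q6 shares end sequence with H2-K1 and H2-D1, as given above, so the grouping and the genes measured in it are not fully separate. In the WT-labelled library 34 cells (0.854%) and in the cKO-labelled library 255 cells (6.12%) had a UMI of H2-Q6 or H2-Q7 at 5000 UMIs. In the cKO-labelled library the 12 other class I genes stood at 1970 CPM in the 3913 cells with 0, at 4405 CPM in the 159 cells with 1 and at 8069 CPM in the 96 cells with 2 or more, and H2-K1 at 355, 1111 and 2392 CPM. In the WT-labelled library H2-K1 was at 203 CPM in cells with 0 and 447 CPM in the 30 cells with 1. The adipocyte list moved with this grouping in the cKO-labelled library, at 73.6, 121 and 592 CPM, and so did the cycling list, at 67.1, 259 and 450.0 CPM there and at 46.9 and 313 CPM in cells with 0 and 1 of the WT-labelled library, and their part was not tested. The immune list was at 25.1, 20.1 and 43.8 CPM in the cKO-labelled library and the 6 IFIT and ISG15-type genes at 156, 391 and 546 CPM.

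Of the 170 cells with at least 30 class I UMIs in the cKO-labelled library, 62.9% had an IFIT or ISG15-type UMI, against 31.5% of all its cells. Dpp4-type cells were 25.9% of them and 28.8% of all, cells with a Pdgfra UMI 67.1% of them and 67.1% of all, and their median depth before thinning was 10874.5 UMIs against 11254. An adipocyte-list UMI was found in 30.6% against 12.0% of all, an immune-list UMI in 11.2% against 9.67% and a cycling-list UMI in 10.6% against 7.37%. These cells held 16.4% of the class I UMIs of their library. Without the cells that held an adipocyte-list UMI, a comparison chosen after seeing the data, 12 interferon-stimulated genes were over 1.5-fold higher and 1 lower with a median log2 ratio of 0.51, and 8 class I genes were higher and 0 lower with a median of 0.67, against 12.4% of all genes higher and 10.8% lower. Without cells that held an immune or endothelial UMI other than Tek, the counts were 12 and 1 and 9 and 0, against 12% and 10.8% of all genes. Without cells that held a cycling-list UMI they were 13 and 1 and 9 and 0, against 12% and 11% of all genes.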

How the data were processed

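Gene counts were deposited by the authors as UMIs per gene and cell, 1 table per library, made with Cell Ranger 3.1.0 on mm10 and filtered in Seurat 3.2.1 per the study's methods and the submitters' processing notes, which also name R 3.6.1, bcl2fastq 2.20.0 and FastQC 0.11.7. The methods state that doublets and cells other than FAPs were removed, with thresholds not given in the sources used here. All deposited cells were kept (1501 to 4998 genes per cell in the WT-labelled and 1503 to 4998 in the cKO-labelled library), and no doublet caller was run. The labels and the study's methods name different sequencers and digestion times.

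UMIs were summed over cells and scaled to CPM by the library's or class's total. Levels are UMIs of 3′ ends and were not divided by transcript length. Ratios have exact conditional intervals and shares Clopper-Pearson intervals. Differences of log2 ratios between the classes have intervals from a normal approximation. All are 95% and for counting error only. A gene at 0 was set to a floor of 3 counts, and the upper limit given for 0 cells is 3 over the number of cells. Genes with 20 or more UMIs over both libraries were compared. With 1 library per genotype no test was run. Thinning drew 5000 UMIs per cell (seed 11) and left out 120 cells of the WT-labelled and 210 of the cKO-labelled library. Python 3.11.15, numpy 2.4.6, scipy 1.17.1 and R 4.3.3 were used, and edgeR 4.0.16 only for TMM factors on the deposited counts. The calculations were tested on simulated data.

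The members, lists and classes were chosen with earlier results of these data known. Members over 1.5-fold with 100 or more UMIs, and members of opposite direction in the 2 classes of cells, were given with their values, and of each other list at most 6 genes past 1.5-fold with 100 or more UMIs could be named. H2-T24 was outside that rule and was named after its values were seen. A further result is not reported here. Gene positions are from GENCODE on GRCm38 and promoters from RefSeq on GRCm38.p6.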

Additional observations from a re-analysis of the deposited data

Results flagged for a closer look

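Irf1, the interferon regulatory factor, moved in opposite directions in the 2 classes of cells. Its log2 ratio of cKO over WT was 0.61 higher in other cells than in Dpp4-type cells, −0.30 in the latter and 0.31 in the former. With 1 library per genotype the difference was not tested, and the counting interval of 0.51 to 0.71 does not cover variation between mice.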

How the results depend on the processing

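No paired analysis was possible because only 1 library was made of each genotype, and for the same reason no library could be left out. The 24 counts, medians and shares were recomputed under 20 other settings, and 282 of 312 values stayed within 1.5 times the reported count or within its counting error. TMM scaling lowered the median log2 ratio of all genes from 0.10 to −0.00 and that of the interferon-stimulated genes to 0.40, changed the sign of Irf9 (−0.027) and Ifih1 (−0.029), and gave 2 class I genes higher and 0 lower in Dpp4-type over other cells of the cKO-labelled library. Thinning and leaving out the 5% of cells with the most UMIs also gave 2 higher there. At 2-fold in place of 1.5-fold, 5 class I genes were higher over all cells and 5 in other cells, 7 interferon-stimulated and 4 class I genes in Dpp4-type cells, and between the classes 3 interferon-stimulated genes were higher and 2 lower and 1 class I gene higher and 0 lower (WT-labelled), and 3 higher and 1 lower and 0 and 0 (cKO-labelled). Leaving out every cell with an immune or endothelial UMI kept only 141 and 149 Dpp4-type cells, because Tek is found in many of them. It gave 1 class I gene higher in Dpp4-type cells, 5 interferon-stimulated genes higher and 0 class I genes lower between the classes (WT-labelled) and 0 class I genes higher (cKO-labelled), and turned Gbp3 between the libraries in Dpp4-type cells (−0.00098) and Rsad2 (−0.18) and Gbp3 (−0.021) between the classes of the cKO-labelled library. The cause was not tested beyond the fewer cells. A score cut of 15 gave 2 interferon-stimulated genes lower (WT-labelled) and 0 class I genes lower (cKO-labelled), and leaving out cells with a score of 10 to 40 gave 5 interferon-stimulated genes lower (cKO-labelled). For the counts at 2-fold, and for those within or between the classes under other settings, the share of all genes was not computed. These counts are therefore not set against it. The share of cells with an IFIT or ISG15-type UMI, WT-labelled against cKO-labelled, depended on depth, 14.4% and 22.8% at 3000 UMIs, 29.3% and 41.0% at 8000 and 37.8% and 47.4% without thinning. Without thinning the share of cells with a Bst2 UMI was lower by 1.60 percentage points in the cKO-labelled library (−1.60). Leaving out adipocyte-list, cycling-list or immune and endothelial cells with Tek set aside, and totals without the FAP list, were chosen after seeing the data. With FAP-list genes out of the totals the counts were 13 and 1 and 9 and 0, against 1751 of 14729 genes higher and 1678 lower.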
